A study of Mus musculus with 48 samples.

Results

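Of the 248 endogenous genes counted on an inflammation panel in mouse knee joints, 52 had counts close to the panel's background, although 8 of them exceeded the limit set by their lane's negative controls in 12 or more of the 48 samples. They were chosen by their own counts, as the genes with over 20 deposited counts in fewer than 12 of the 48 samples, and the 6 housekeeping genes and the control probes were left out of that choice. The members include most of the T helper and lymphoid cytokines of the panel, a part of its terminal complement genes (C8a, C8b, C9 and Hc), 4 chemokines and 4 cytokine or chemokine receptors. The low counts of the 52 genes are therefore a description and not a test. The choice did not use the sample groups, so differences between groups were tested. A gene with over 20 counts in all 12 samples of a group could not be chosen, however. The rule itself therefore limits the group differences that could be found among the 52 genes.

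All mice were male C57BL/6, labelled as 3 months of age, and the tissue was an equal mass of synovium and of cartilage with its subchondral bone. The 4 groups held 12 samples each: healthy joints that were not loaded, loaded joints without treatment, loaded joints given a negative control siRNA (siNEG) and loaded joints given siRNA against Mmp13 (siMMP13). Loading started at 8 weeks of age and consisted of 500 compressive cycles at 9 N, given 5 times a week for 4 weeks, as a model of post-traumatic osteoarthritis. Both siRNAs were carried by polymer nanoparticles coupled to an antibody to type II collagen, so that siNEG and siMMP13 joints shared the carrier and differed in the siRNA. The labels do not say whether the 12 samples of a group are 12 animals, so p-values measure only the spread between these samples. In such bulk tissue, fewer cells of a type and less RNA per cell cannot be told apart. None of the 5 joint markers looked for (Col2a1, Acan, Prg4, Comp and Col1a1) had a probe on the panel, so the labelled tissue could not be checked against them, while all 6 macrophage and all 5 lymphocyte or antigen-presentation markers exceeded background in at least 6 samples of every group.

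The cytokines of T helper cells are secreted mainly by activated lymphocytes and by innate lymphoid cells. The terminal complement proteins and C-reactive protein are made chiefly by the liver and reach a joint through the blood. A transcript at background in joint RNA therefore says nothing of the protein in the joint. On the nCounter system, barcoded probes bind RNA molecules and are counted without amplification. Probes against sequences that are not in the sample, the negative controls, measure the background of each lane, and each sample is run in 1 lane.

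The promoters of 4 of the genes are printed to show what their start sites look like, from the gene with the most stable group difference (Il11, a cytokine of the IL-6 family), a neutrophil chemokine receptor (Cxcr1), a T helper cytokine (Il4) and a widely expressed signalling gene with a CpG-rich promoter that met the rule (Hras1, a small GTPase). Each sequence runs from 250 bases before to 50 bases after a listed start site of the gene, on the minus strand in all 4 cases, from RefSeq on build GRCm38.p6. Capitals mark every CG dinucleotide and, in Il11, the sequence TGAGTCA, a match to the AP-1 motif at position 153 of the window. The Il11 window lies at chr7:4778092-4778391, that of Cxcr1 at chr1:74194582-74194881, that of Il4 at chr11:53617289-53617588 and that of Hras1 at chr7:141193955-141194254. For Il11 and Il4 the table listed 2 start sites, of which 1 is shown. It is the start with the lower coordinates, which on the minus strand is the more downstream of the 2. The windows of Il11 and Il4 may therefore not be those of the gene's main start.
Il11: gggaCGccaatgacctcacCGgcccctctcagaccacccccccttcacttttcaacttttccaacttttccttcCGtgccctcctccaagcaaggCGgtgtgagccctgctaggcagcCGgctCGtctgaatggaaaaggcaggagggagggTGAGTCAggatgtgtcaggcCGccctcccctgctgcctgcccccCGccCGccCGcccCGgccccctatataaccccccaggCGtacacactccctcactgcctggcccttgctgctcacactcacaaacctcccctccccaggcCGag
Cxcr1: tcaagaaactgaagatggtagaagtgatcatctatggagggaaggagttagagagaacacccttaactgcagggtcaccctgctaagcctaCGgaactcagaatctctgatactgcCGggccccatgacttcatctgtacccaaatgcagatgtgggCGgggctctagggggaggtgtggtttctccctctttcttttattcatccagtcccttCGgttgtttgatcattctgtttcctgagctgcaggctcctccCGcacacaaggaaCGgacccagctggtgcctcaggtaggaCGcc
Il4: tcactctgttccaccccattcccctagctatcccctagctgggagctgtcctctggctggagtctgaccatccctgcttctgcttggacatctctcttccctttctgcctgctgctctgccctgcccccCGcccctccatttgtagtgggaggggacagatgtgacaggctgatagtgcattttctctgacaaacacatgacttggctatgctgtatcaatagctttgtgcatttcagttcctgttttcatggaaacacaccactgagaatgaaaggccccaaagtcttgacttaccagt
Hras1: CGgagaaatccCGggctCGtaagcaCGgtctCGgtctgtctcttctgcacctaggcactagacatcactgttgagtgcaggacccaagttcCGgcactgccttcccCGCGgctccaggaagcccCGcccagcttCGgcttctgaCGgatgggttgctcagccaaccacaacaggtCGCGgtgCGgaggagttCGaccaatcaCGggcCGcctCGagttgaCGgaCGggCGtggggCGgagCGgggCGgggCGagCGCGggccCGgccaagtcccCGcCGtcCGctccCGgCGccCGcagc
The Il4 window held 1 CG dinucleotide, that of Cxcr1 held 7, that of Il11 held 13 and that of Hras1 held 34.

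A promoter window was given for 41 of the 52 genes and for 144 of the 196 other panel genes. Where several start sites were listed, the window with the lowest coordinates was used, whatever the strand. The median number of CG dinucleotides per window was 4 for the low genes and 10 for the others, and the median share of G and C was 48.3% against 56.8%. Windows with 0 or 1 CG dinucleotide went the other way, with 2 of the 41 low genes (4.88%), Il4 among them, and 16 of the 144 others (11.1%). The ratio of observed to expected CG dinucleotides exceeded 0.6, a usual mark of a CpG-rich promoter, in 5 of the 41 low genes (12.2%), in 59 of the 144 others (41.0%) and in 35.9% of the 27025 genes of the whole promoter table. The 5 were Map3k9 (0.773), Twist2 (0.803), Areg (0.819), Mapkapk5 (0.915) and Hras1 (0.952). Hras1, Twist2 and Map3k9 were also among the low genes most often above their lane's background, while Mapkapk5, a kinase activated by the p38 pathway, never was, and neither was Areg, an epidermal growth factor receptor ligand.

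The AP-1 motif was searched as TGANTCA on both strands, and 6 of the 41 windows held it (14.6%), against 14 of the 144 other panel genes (9.72%) and 7.91% of all genes of the table. The TATA motif, searched as TATAAA on both strands, was in 11 of the 41 windows (26.8%), in 25 of the 144 others (17.4%) and in 14.1% of all genes. These matches describe the letters of the windows and were not tested.

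**Figure D1:**
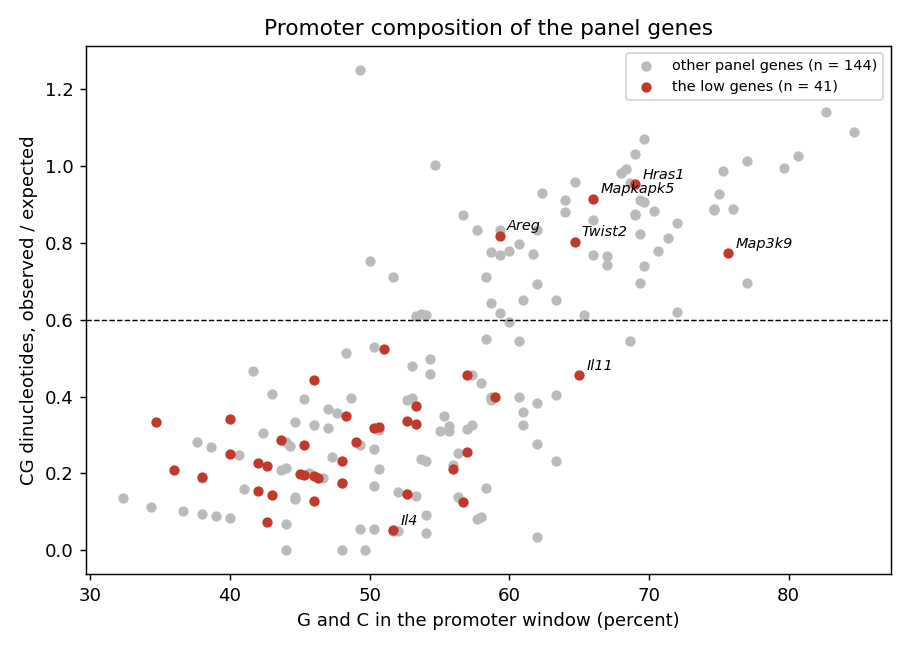
Each point is the promoter window of 1 panel gene, with the share of G and C (percent) on the horizontal axis and the ratio of observed to expected CG dinucleotides on the vertical axis; red points are the 41 low genes and grey points the 144 other panel genes. The dashed line marks a ratio of 0.6, above which 5 red points lie, each named.

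Among the T helper and lymphoid cytokines, 13 of the 14 on the panel were among the low genes, and 8 of the 13 were never above the limit of their lane, which is the mean plus 2 SD of the 8 negative controls. The 8 were Il2, Il3, Il5, Il9, Il13, Il17a, Il22 and Fasl, the ligand of the death receptor Fas. Il17a, the defining cytokine of Th17 cells, had a mean of 3.25 counts over the 48 samples and a highest count of 11. Il5, the eosinophil growth factor, had the same mean and a highest count of 12. These means lay below that of every negative control, of which the lowest averaged 3.44 counts.

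The other 5 of the 13 were above the limit in a few samples. Il4, Il21 and Cd40lg, the ligand through which helper T cells activate B cells, were each above it in 1 sample, and Lta, a lymphotoxin, was above it in 2. Ifng, the Th1 cytokine interferon gamma, was above it in 10 samples, the most of this list. The panel's remaining member of the list, Tnfsf14, was not among the low genes.

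Several of these genes are neighbours in the genome. In the RefSeq annotation of GRCm38.p6, no protein-coding gene lies between Il4 and Il13 or between Csf2 and Il3 on chromosome 11, and 1 lies between Il13 and Il5. Il2 and Il21 on chromosome 3 have none between them, and Il22 and Ifng on chromosome 10 have 1.

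Of 12 cytokines grouped as IL-12, IL-10 and regulatory cytokines, 10 were among the low genes and the others were Il1a and Il6. Il23a, Csf2, Csf3 and Areg were never above the lane limit. Il12b, which encodes the subunit shared by IL-12 and IL-23, and Il10, an anti-inflammatory cytokine, were each above it in 3 samples. Ifnb1 was above it in 6, Ifna1 in 8 and Tslp, an epithelial cytokine that acts on dendritic cells, in 14. Ifna1 belongs to a family of near-identical genes, so its count is uncertain as to the gene.

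The type I interferon genes and Il10 had their highest counts in single lanes. Ifnb1 reached 32 counts in siMMP13 replicate 10 against a median of 8.5 in that group. Il10 reached 35 counts in the same lane against a group median of 7. Ifna1 reached 28 counts in 1 healthy and in 1 siNEG sample, against group medians of 9.5 and 4.5.

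Of 22 complement and plasma protein genes, 7 were low: C8a, C8b and C9 of the membrane attack complex, Hc, which encodes complement component C5, the lectin pathway genes Mbl2 and Masp2, and Crp. The 15 others included C1qa, C1qb, C3, C6 and C7. C8b, Crp, Hc and Mbl2 were never above the lane limit, C8a was above it in 1 sample, Masp2 in 2 and C9 in 8. Hc averaged 3.42 counts, below every negative control. Of 8 liver markers on the panel, 6 were among these genes and none of the 6 was above background in most samples of any group. The other 2, Kng1 and C6, were above it in at least 6 samples of every group. C8a and C8b lie next to each other on chromosome 4.

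Of 19 chemokines on the panel, Ccl17, Ccl20, Ccl22 and Ccl24 were low. Ccl20, which attracts cells with the receptor Ccr6, was never above the lane limit and Ccl17 was above it in 1 sample. Ccl22, which like Ccl17 is a ligand of Ccr4, and Ccl24, an eosinophil chemoattractant, were each above it in 17. Ccr4 itself was above it in 3 samples. Ccl17 and Ccl22 lie on chromosome 8 with 1 coding gene between them.

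Of 16 cytokine and chemokine receptors, 4 were low. Besides Ccr4 they were Il23r, the receptor for IL-23, above the limit in 1 sample, Il22ra2, a soluble receptor that binds IL-22, in 5, and Cxcr1, in 16. Both Il23r and its ligand subunits Il23a and Il12b were thus near background, and Il22 and Il22ra2 likewise. The low genes also held a pair of lipid mediator receptors, the leukotriene B4 receptor Ltb4r2 and the prostaglandin E2 receptor Ptger1, above the limit in 14 samples and in 1.

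The remaining 12 members have other roles, and 1 of them enters the counts over all members but is not described. Tlr3, a sensor of double-stranded RNA, was the only one of 14 innate sensor genes among them and was never above the lane limit. Nox1, an NADPH oxidase known from colon, was above it in 3 samples.

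H2-Ea-ps, the MHC class II gene now named H2-Ea, is not expressed in C57BL/6 mice because their haplotype carries a promoter deletion. It averaged 9.69 counts and was above the limit in 6 samples. Gpr44, now Ptgdr2, a prostaglandin D2 receptor of Th2 cells, was never above it. Gngt1, a transducin subunit of photoreceptors, Mef2b, a transcription factor, and Pik3c2g, a lipid kinase, were likewise never above it. Twist2, a transcription factor of mesenchymal cells, was above it in 20 samples, the most of all 52 genes. Map3k9, a kinase upstream of JNK, was above it in 15 and Hras1 in 17.

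By count, 23 of the 52 genes were never above the lane limit, 14 were above it in 1 to 3 samples, 7 in 4 to 11 and 8 in 12 or more. The rule's edge did not fall in a gap. Just inside it, Ccl22 had over 20 counts in 10 samples, Map3k9 and Twist2 in 8, and Ccl24 and Ltb4r2 in 7. Just outside it, Irf3, Elk1 and Nos2 had over 20 counts in 12 samples, Cxcl2 in 13 and Cxcl3 in 18. Among the 52, 37 had over 20 counts in no sample.

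**Figure D2:**
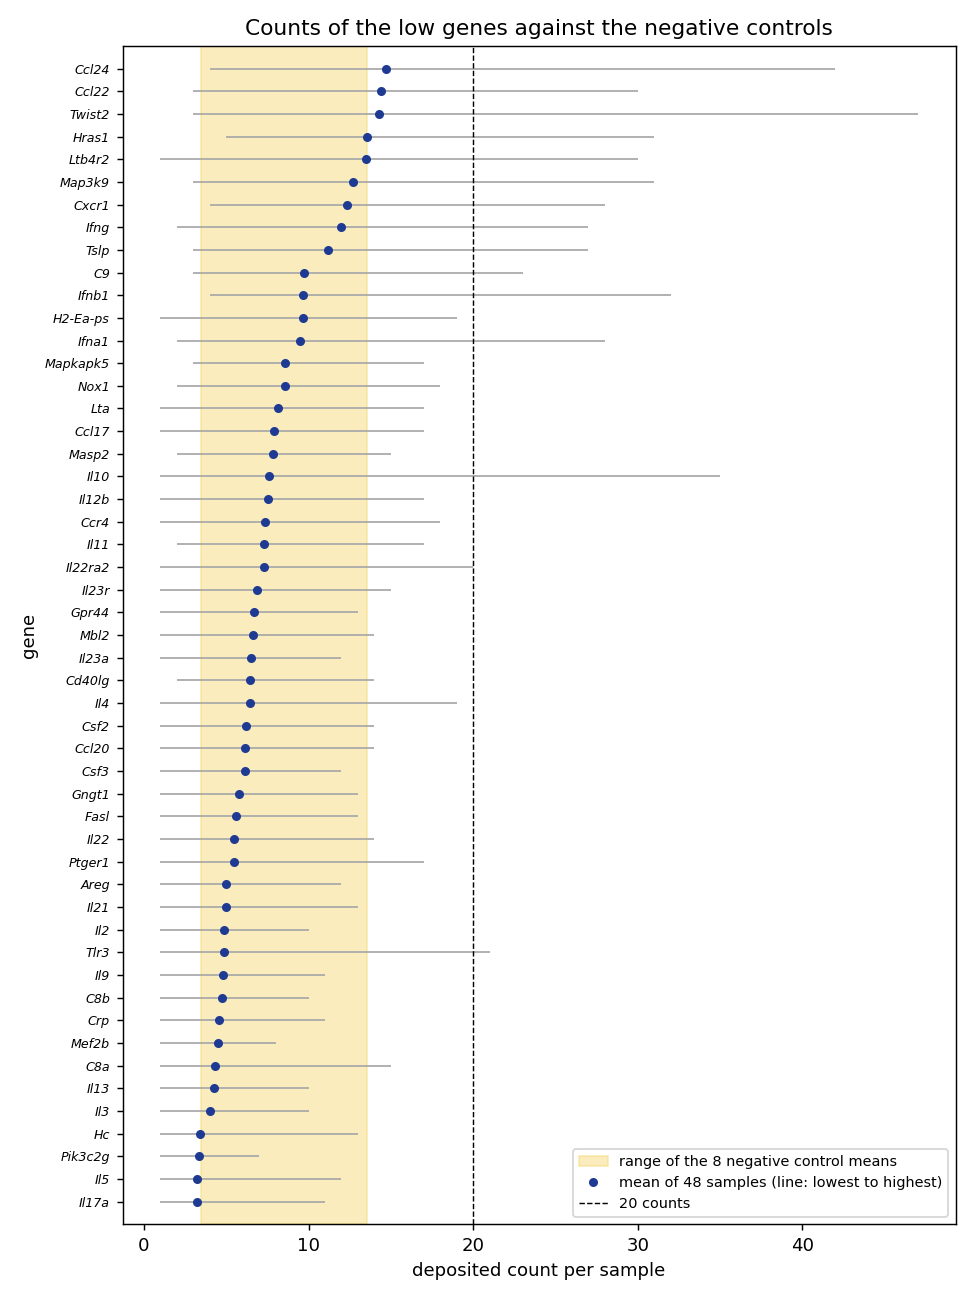
Deposited counts (horizontal axis) of the low genes, with 1 gene not shown and the mean of 48 samples as a point and the lowest to highest sample as a line; the shaded band is the range of the means of the 8 negative controls and the dashed line marks 20 counts. The means lie in the band except for 4 below it and 4 above it.

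Averaged over all samples, the negative controls ranged from 3.44 counts (NEG_G) to 13.5 counts (NEG_F). The means of 44 low genes lay within that range. Il17a, Il5, Pik3c2g and Hc lay below it, and Ccl24 (14.7), Ccl22 (14.4), Twist2 (14.3) and Hras1 (13.6) lay above it. The upper end of the range rests on NEG_F, since the next highest control averaged 9.63 counts, and 40 of the 52 genes lay below that value.

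Lane by lane, the median of the 52 genes was below the mean of the negative controls in 30 of 48 lanes and below the highest negative control in 48 of 48. The lane limit ranged from 7.70 to 24.1 counts. In total 203 of 2496 values of the low genes lay above their lane's limit (8.13%), and 10 lanes had none above it. For a like comparison, each negative control was set against a limit made from the other 7 of its lane, and the low genes against the same limits. On that footing the low genes were above the limit in 8.86% of values and the negative controls in 8.59% (33 of 384). NEG_F, the highest control on average, enters both these limits and the share of the negative controls, here and by group. Its part in these shares was not worked out. The 196 other genes were above the lane limit in 96.3% of values.

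The share varied between groups for both kinds of probe. Against limits from 7 controls, low genes were above in 9.41% of values in healthy joints and negative controls in 7.29%. In untreated loaded joints the shares were 13.2% and 10.4%. In siNEG joints they were 6.71% and 9.38%, and in siMMP13 joints 6.11% and 7.29%. The share of the low genes was thus the higher in healthy and untreated joints and the lower in both siRNA groups. These shares were not tested.

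**Figure D3:**
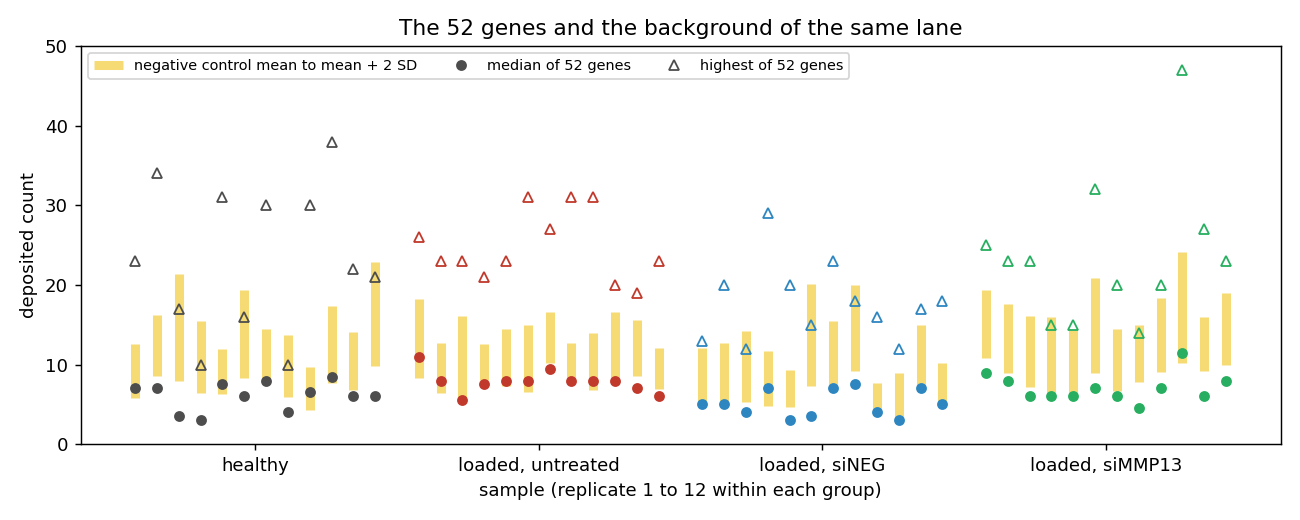
For each of the 48 samples, in replicate order within its group, the filled circle is the median and the open triangle the highest deposited count of the 52 low genes; the yellow bar runs from the mean of the 8 negative controls of that lane to their mean plus 2 SD. The medians lie at or below the lower part of the bars, and the highest count, 47, is Twist2 in siMMP13 replicate 10.

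Lanes differed in depth and in control signal. The median total gene count per group ran from 113746 (healthy) to 162624 (untreated), with 36415 to 302377 over single samples. The median geometric mean of the positive controls was 1347 in healthy, 1338 in untreated, 1179 in siNEG and 1613 in siMMP13 lanes, and the median of the negative controls' mean was 7.19, 7.38, 5.19 and 9.00 counts. The deepest lane, siMMP13 replicate 10, held the highest count of 15 low genes and 10 of the 64 values over 20 counts. The part of lane efficiency in group differences near background cannot be told apart from the groups. The counts of the low genes made up 0.197 to 0.648% of a lane's gene count.

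A gene was taken as present in a group when at least 6 of its 12 samples exceeded the lane limit. By that rule 8 of the 52 were present in exactly 1 group and none in more than 1. Ccl22, Ccl24 and Ifng were present in healthy joints only, and Cxcr1, Map3k9, Twist2, Hras1 and Tslp in untreated loaded joints only. No low gene was present in siNEG or in siMMP13 joints. The sort is coarse, because 3 of these genes, Hras1, Twist2 and Ccl24, reached 5 samples in another group.

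Cxcr1 was above the limit in 9 of 12 untreated samples, against 2 in healthy, 2 in siNEG and 3 in siMMP13 joints. Map3k9 followed with 8, against 2, 2 and 3. Twist2 was above it in 7 untreated samples, against 4, 5 and 4, so that its groups were close. Hras1 was above it in 6 untreated and 5 healthy samples, with 2 in siNEG and 4 in siMMP13. Tslp was above it in 6 untreated samples and in 3, 4 and 1 of the healthy, siNEG and siMMP13 samples.

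Ifng was above it in 6 healthy and 4 untreated samples and in none of the 24 siRNA-treated samples. Ccl22 was above it in 6 healthy samples and in 4 untreated, 3 siNEG and 4 siMMP13 samples. Ccl24 was above it in 6 healthy samples and in 3, 3 and 5 of the others. Ltb4r2, just short of the rule, was above it in 5 healthy, 4 untreated, 2 siNEG and 3 siMMP13 samples.

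**Figure D4:**
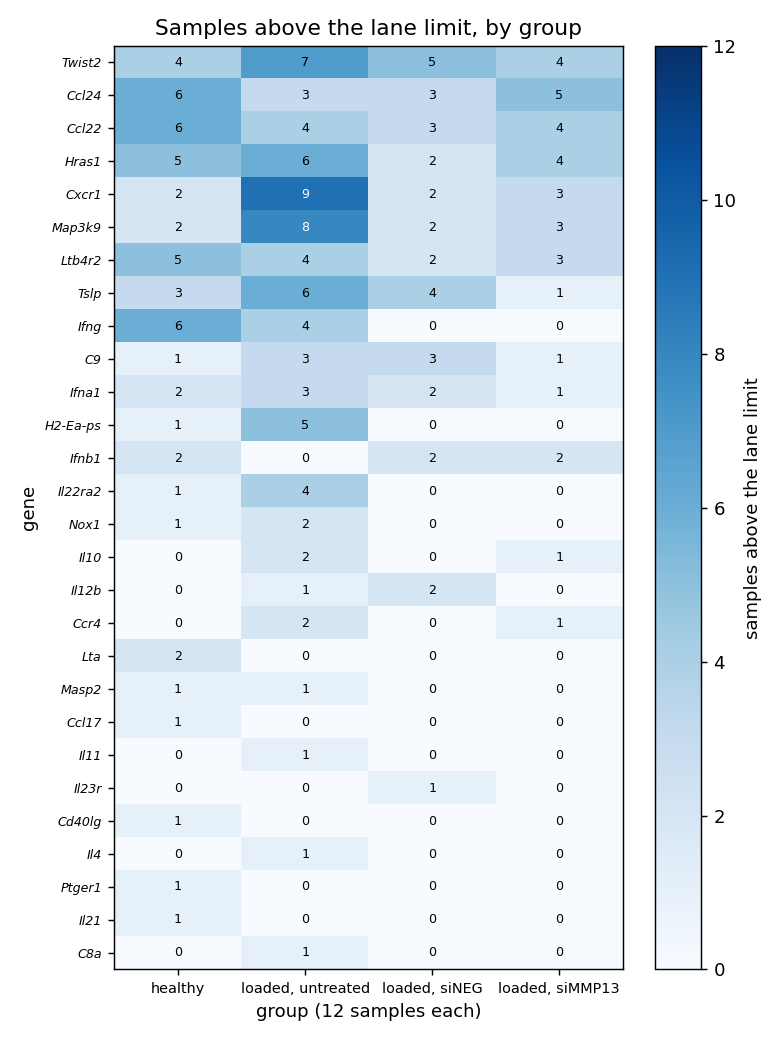
Number of samples out of 12 (colour and printed value) in which each low gene exceeded the mean plus 2 SD of the negative controls of its lane, by group, for the genes that did so in at least 1 sample, with 1 gene not shown. Cxcr1 and Map3k9 stand highest in untreated loaded joints with 9 and 8, and Ifng has 0 in both siRNA groups.

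Whether detection differed between the 4 groups was tested for each of the 248 genes with a two-sided Fisher-Freeman-Halton exact test of samples above the limit, with Benjamini-Hochberg adjustment over all genes. None of the 52 low genes passed an adjusted p under 0.05, and 0.806% of all genes (2 of 248) did. The test could show no difference for the 23 low genes never above the limit. The same holds for 145 other genes that were above it in all 48 samples. All of these genes enter the adjustment and the share of all genes. Unadjusted p-values under 0.05 were found for 5 low genes. Ifng had p = 0.0014 in the exact test (adjusted p = 0.084) and Cxcr1 p = 0.008 (adjusted p = 0.28). H2-Ea-ps, above the limit in 1 healthy and 5 untreated samples, had p = 0.0096 (adjusted p = 0.28). Map3k9 had p = 0.034 (adjusted p = 0.77), and Il22ra2, above the limit in 1 healthy and 4 untreated samples, had p = 0.043 (adjusted p = 0.88). With a limit of mean plus 3 SD the same exact test called 1 low gene, Cxcr1, and without healthy replicate 3 it called Ifng.

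The unscaled counts behind these splits overlapped throughout, and lane depth differed between the groups. Ifng had 3 counts in the lowest, 13.5 in the median and 27 in the highest healthy sample, and 7, 13.5 and 23 in untreated joints. It had 4, 10 and 17 in siNEG joints and 2, 10.5 and 22 in siMMP13 joints. The siRNA groups had lower medians of these unscaled counts, with overlapping ranges. Scaled to the 6 housekeeping genes, Ifng averaged 13.8 in healthy, 11.4 in untreated, 11.4 in siNEG and 9.67 in siMMP13 joints. Against untreated joints its log2 fold change was -0.02 in siNEG and -0.20 in siMMP13 joints (adjusted p = 0.99 and 0.66 by edgeR's quasi-likelihood test). Against healthy joints it was -0.32 and -0.50 (adjusted p = 0.24 and 0.053 by the same test).

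Map3k9 had 3, 9.5 and 22 counts in the lowest, median and highest healthy sample, 12, 18 and 31 in untreated joints, 4, 9.5 and 16 in siNEG joints and 5, 11.5 and 22 in siMMP13 joints. In these unscaled counts its untreated samples were the highest as a group, and all reached at least 12 counts. Scaled to the 6 housekeeping genes, Map3k9 averaged 10.6, 14.0, 12.2 and 12.85 in the same order. The difference between untreated and healthy joints was not called (log2 fold change 0.39, adjusted p = 0.24 by edgeR's quasi-likelihood test). Twist2 had medians of 10 counts in healthy, 18 in untreated, 11.5 in siNEG and 14 in siMMP13 joints, and single samples ran from 3 to 47. Its groups overlapped widely, and its scaled means were 11.1, 13.6, 15.6 and 14.6 in the same order.

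Ccl22 had medians of 15.5 counts in healthy, 13 in untreated, 10 in siNEG and 13.5 in siMMP13 joints, within a range of 3 to 30. Hras1 had medians of 14.5, 13.5, 10 and 14.5 in the same order, within a range of 5 to 31. Tslp had medians of 7.5, 14.5, 12 and 8, within a range of 3 to 27. All 3 genes showed overlapping groups. Ltb4r2 had medians of 15, 12, 9 and 14 counts within a range of 1 to 30.

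Differences in level were tested with edgeR's quasi-likelihood test on the counts of all 248 genes, scaled to the 6 housekeeping genes and with Benjamini-Hochberg adjustment over all genes. The 8 negative controls were carried in the same fit, where they show what a probe at background does under the same scaling. Each SE printed beside a fold change is that of the difference in group means of log2(scaled count + 1). These SEs do not come from edgeR's fit, which gave the fold changes and p-values. In untreated loaded against healthy joints 6 of the 52 low genes were called (11.5%), against 37.5% of all 248 genes. Il11 and Cxcr1 rose, and C8b, Ccl24, Il2 and Lta fell. The median log2 fold change was -0.15 over the 52 genes, 0.11 over all genes and -0.33 over the negative controls. The sign for the 52 genes rests on the scaling, since their median was 0.24 with samples scaled to the positive controls and 0.15 with scaling to the negative control mean. Among the negative controls, NEG_A had a log2 fold change of -0.80 ± 0.31 (SE) with an unadjusted p of 0.012 in this test, below the largest unadjusted p of any gene called in this comparison, 0.018. The largest rise of a negative control was 0.53.

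Il11 had 2 counts in the lowest, 3.5 in the median and 7 in the highest healthy sample. It had 6, 10.5 and 13 in untreated, 3, 6.5 and 12 in siNEG and 3, 8.5 and 17 in siMMP13 joints. Healthy samples were the lowest as a group, and the healthy and untreated ranges overlapped at 6 to 7 counts. After scaling, Il11 averaged 4.10 ± 2.00 counts in healthy and 7.59 ± 1.30 in untreated joints (SD, n = 12), a 1.91-fold rise by edgeR's test (log2 fold change 0.94 ± 0.16 SE, adjusted p = 0.0009), with 12 of 12 untreated samples above the healthy median. Relative to the mean of the negative controls of the same lane, the median level of Il11 was 0.472 in healthy, 1.27 in untreated, 1.15 in siNEG and 0.945 in siMMP13 joints. Il11 was thus below its lane's mean background in 10 of 12 healthy samples and near it in the loaded groups, and it exceeded the lane limit in 1 of 48 samples.

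The Il11 call was kept in all 14 alternatives run, among them scaling to the mean of the negative controls, and without each of the 48 samples in turn. Its size was not fixed: the log2 fold change ran from 0.33 with a pseudocount of 10 to 2.77 with the negative control mean subtracted, with an adjusted p of at most 0.012.

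Cxcr1 had 4, 8 and 17 counts in the lowest, median and highest healthy sample, and 5, 17 and 26 in untreated joints. It had 5, 8.5 and 14 in siNEG and 9, 13 and 28 in siMMP13 joints. Untreated and siMMP13 samples were higher as groups, with overlap. It rose 1.53-fold in untreated joints by edgeR's test (log2 fold change 0.61 ± 0.19 SE, adjusted p = 0.018; 10 of 12 above the healthy median), a call that was lost with DESeq2 size factors and with total-count scaling (adjusted p of up to 0.06). Cxcr1 is a gene of neutrophils, and the summed scaled count of 4 granulocyte markers (Ccr3, Cxcr2, Alox15 and Mmp9) had a median of 5105 in healthy and 3293 in untreated joints, with ranges of 2259 to 6311 and 1965 to 5160. This sum pools 4 genes, is not a measure of neutrophils alone and does not show the part of each gene in it. The part of cell numbers in the Cxcr1 difference was not tested.

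The 4 genes that fell had few counts. C8b had 3, 6.5 and 10 counts in the lowest, median and highest healthy sample and 1, 4 and 5 in untreated joints, and was never above the lane limit. Its log2 fold change was -1.18 ± 0.25 SE by edgeR's test (adjusted p = 0.0025), with 12 of 12 untreated samples below the healthy median on the scaled counts, and it was called in all 13 alternatives that tested it. Its change was larger than that of any negative control, of which the lowest was -0.80, and its ranges overlapped.

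Ccl24 had 5, 15 and 38 counts in healthy and 8, 13.5 and 19 in untreated joints, a log2 fold change of -0.76 ± 0.20 SE in edgeR's test (adjusted p = 0.0041). Il2, the T cell growth factor, had 3, 5.5 and 10 counts against 1, 5 and 8, with -0.82 ± 0.29 (adjusted p = 0.04). Lta had 3, 9 and 17 counts against 4, 7.5 and 12, with -0.62 ± 0.17 (adjusted p = 0.024). The raw medians of these 3 genes differed by little and their ranges overlapped. The fold changes of Ccl24 and Lta lay within the range of the negative controls and that of Il2 lay just past its lower end. All 3 calls were lost when samples were scaled to the positive controls or to the negative control mean and when that mean was subtracted. That of Il2 was also lost without any 1 of 9 samples (healthy replicates 1, 4, 6 and 9 and untreated replicates 1, 3, 4, 7 and 9; adjusted p of up to 0.09), and that of Lta without untreated replicate 1.

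In siMMP13 against healthy joints, 2 of the 52 low genes were called, against 38.3% of all genes. By edgeR's test Il11 rose 2.06-fold (1.04 ± 0.22 SE on the log2 scale, adjusted p = 0.00029), in 12 of 12 siMMP13 samples relative to the healthy median. The negative control NEG_G moved as much, by 1.04 ± 0.29 (unadjusted p = 0.0028), from 2.23 to 4.87 scaled counts on average, and 9 of 12 siMMP13 samples lay above its healthy median. Cxcr1 was 1.68-fold higher (adjusted p = 0.0035 by edgeR's test, 10 of 12 samples), a call lost when samples were scaled to the positive controls or to the negative control mean (adjusted p of up to 0.14).

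The count for this comparison rose to 4, with Csf2 and Ifng, without healthy replicate 4, healthy replicate 9 or siMMP13 replicate 4. It was 8 when the negative control mean was subtracted.

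In siNEG against healthy joints 1 low gene was called, Il11, against 39.5% of all genes. It rose 2.01-fold by edgeR's test (1.01 ± 0.22 SE on the log2 scale, adjusted p = 0.0007), again in 12 of 12 samples relative to the healthy median. The negative controls ranged from -0.88 (NEG_A, unadjusted p = 0.0095) to 0.30 in this comparison. Cxcr1 was 1.27-fold higher and did not pass (adjusted p = 0.22 by edgeR's test). The healthy samples are shared by these 3 comparisons, so the Il11 values are not independent of each other.

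Leaving out 1 sample added a second gene to this count in 5 cases: Il12b without healthy replicate 1, and Ltb4r2 without healthy replicate 2 or siNEG replicates 4, 6 or 12.

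**Figure D5:**
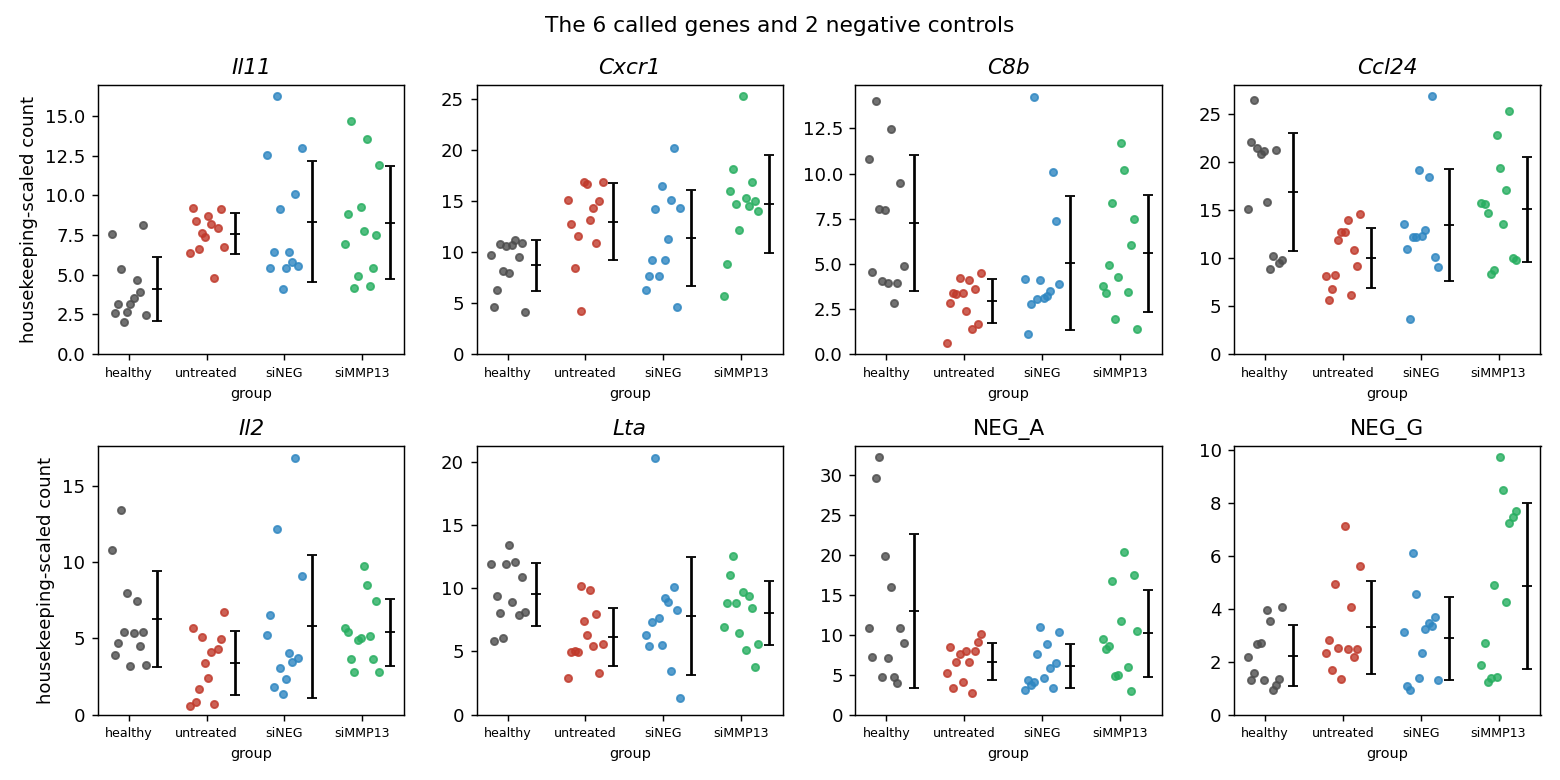
Housekeeping-scaled counts (vertical axis) per sample of the 6 genes called in any comparison and of negative controls NEG_A and NEG_G, by group (n = 12 each); points are samples and bars the mean ± SD. Il11 is lowest in healthy joints, with group means of 4.10, 7.59, 8.35 and 8.28, and NEG_A is highest there.

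Between the loaded groups none of the 52 low genes was called by edgeR's quasi-likelihood test, nor by the Wald test of DESeq2. In siMMP13 against siNEG joints 1.61% of all genes were called, and 1 low gene had an unadjusted p under 0.05. In siMMP13 against untreated joints 2.82% of all genes were called, and 3 low genes had an unadjusted p under 0.05. In siNEG against untreated joints 1.21% of all genes were called, and 2 low genes had an unadjusted p under 0.05.

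Il11 differed by a log2 fold change of 0.04 ± 0.23 SE between siMMP13 and siNEG joints (adjusted p = 0.97 by edgeR's test). For Cxcr1 the same difference was 0.40 ± 0.22 (adjusted p = 0.31). In siMMP13 against untreated joints every negative control had a positive log2 fold change, from 0.27 to 0.53 with a median of 0.47, and the median of the 52 low genes was 0.25. With samples scaled to the positive controls the median of the 52 became -0.24, and with the negative control mean as the scale -0.19. C8b had the largest value there, 0.79 ± 0.26, and did not pass (adjusted p = 0.18 by edgeR's test). The p-values that missed the threshold do not show that these levels were alike.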

How the data were processed

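RNA from 48 knee joint samples in 4 groups of 12 was counted on NanoString's mouse inflammation panel (version 2), per the labels' protocols. The table deposited by the authors holds whole-number counts for 268 probes (248 endogenous genes, 6 housekeeping genes, 6 positive and 8 negative controls), and no normalization is given in the sources used here. Groups came from the sample titles. The members, gene lists and tests were chosen with earlier results of these data known. Named in full are genes called in any test, present in 1 group only, above the lane limit in at least 12 samples or among the 10 highest single counts.

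Counts were fitted without a low-count filter in edgeR 4.0.16 (R 4.3.3), for all groups at once, with an offset from the 6 housekeeping genes (their geometric mean). SEs come from log2(scaled count + 1). The procedure was tested on simulated data. Alternatives changed the scaling, filter, background, test (DESeq2 1.42.0, limma 3.58.1), lane limit and samples. All 52 symbols matched the RefSeq gene table of GRCm38.p6, 48 by symbol and 4 by synonym. Individual values of 1 of the 52 genes are not reported here. Counting precision is limited by the few counts per gene.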

Additional observations from a re-analysis of the deposited data

How the results depend on the processing

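Counts of called low genes in untreated against healthy joints were 4 to 9 over 14 alternatives and 4 to 8 without 1 sample each. In siMMP13 against healthy joints the count was 1 with positive-control scaling, 8 with the negative control mean subtracted and 2 to 4 without 1 sample each. In siNEG against healthy joints it was 2 with positive-control scaling, with limma at a pseudocount of 1 or 10 and without siMMP13 replicates 7 and 11, whose housekeeping genes stood apart, 3 with TMM and 4 with DESeq2 size factors or total-count scaling, and 1 to 2 without 1 sample each. Between the loaded groups it was 0 in all 3 comparisons under each alternative and without each sample.

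The exact test called 1 low gene at mean plus 3 SD, 0 at the other limits and 0 to 1 without 1 sample each. The share of values above the limit in untreated joints was 12.3% at the mean plus 2 SD of all 8 controls, 5.61% at mean plus 3 SD and 3.37% at a fixed 20 counts. Genes present in healthy joints numbered 0 at mean plus 3 SD, 0 when 9 samples were asked for and 8 when 3 were. In untreated joints these numbers were 1, 1 and 13, and for presence in exactly 1 group 1, 1 and 4. With 3 samples asked for, siNEG joints had 5 and siMMP13 joints 7, and with the highest negative control as limit siMMP13 joints had 1 (Twist2). Without siMMP13 replicate 10, an alternative added after the data were seen, the siMMP13 share was 4.90%, that of all samples 8.06%, the number of genes present in siMMP13 joints 0 and that in exactly 1 group 8. With that sample kept and the same limit from 8 controls, the 2 shares were 5.45% and 8.13%.

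Samples with the same replicate number correlated between -0.695 and 0.531, with medians of 0.00036 to 0.13 over the pairs of groups. Samples with unlike numbers were not compared, so these values cannot settle whether the numbers pair samples. With the replicate number as a block the calls were 5 (without Il2) in untreated, 2 in siMMP13 and 1 in siNEG joints against healthy joints, and 0 between the loaded groups. Against the housekeeping scaling, the median log2 fold change of all genes moved by 0.33 in untreated against healthy joints and by -0.44 in siMMP13 against untreated joints with positive-control scaling, its highest and lowest shift over all scalings. The causes of these changes were not tested. Most values of the 52 genes lie within their lane's background, where a low level and an absent transcript cannot be told apart at this depth.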
